A study of Mus musculus with 58 samples.

Results

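The collagen chain family was taken as every gene whose symbol consists of Col, a type number, the letter a and a chain number, on probe sets of the array annotated with exactly 1 symbol. It held 42 of the 18820 genes measured. By structure, 11 chains were fibrillar, 6 belonged to the basement membrane, 6 to beaded filaments and 8 to the fibril-associated collagens with interrupted helices (FACIT). A further 2 were multiplexins, 3 formed short-chain networks, 4 spanned the cell membrane, and Col26a1 and Col28a1 made up the rest. Col7a1 and Col9a3 lay only on probe sets shared by several symbols and were not analysed here. Probe sets of 4 chains (Col5a1, Col6a5, Col6a6 and Col20a1) came as pairs, which were averaged.

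RNA had been taken at day 19 from m. extensor digitorum longus (EDL, a fast hindlimb muscle), m. soleus (SOL, a slow hindlimb muscle) and heart of male CD2F1 mice, which were 6 to 8 weeks old and weighed about 20 g at the start. Tumour-bearing mice (T) carried subcutaneous C26 cells, a mouse colon adenocarcinoma line that causes wasting, and control mice (C) had received a sham injection of salt solution. Tumour cells were given under general anaesthesia. Mice of the C + WBV and T + WBV groups were in addition vibrated on a platform (whole-body vibration, WBV) at 45 Hz and 1.0 g during 15 min of every day. Both muscles were available from 23 mice (C, 6 mice; C + WBV, 6; T, 6; T + WBV, 5), and hearts from 12 of these mice, 3 per group. As 1 transplanted cell line in young males of 1 hybrid strain was used, the groups stand for that model alone. Only a part of each EDL and SOL was used for RNA, the rest having gone to histology, and the sources used here do not say how much tendon that part held.

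Levels are log2 intensities and differences are log2 fold changes, on which the number of arrays sets the precision. The tissue labels matched the marker genes. The mean level of 8 fast fibre genes was 12.50 to 12.62 in EDL of C, at most 10.00 in SOL and at most 4.33 in heart, that of 7 slow fibre genes was 11.51 to 11.62 in SOL and 6.96 to 8.33 in EDL, and 7 ventricular genes reached 12.03 to 12.14 in heart against at most 5.69 in the skeletal muscles of C. In whole tissue, fewer cells of a type and less RNA per cell cannot be told apart.

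Collagens are proteins of the extracellular matrix whose chains wind around each other into a helix. Fibrillar chains, above all those of types I and III, build the load-bearing fibrils of tendon and of the sheaths around muscle fibres, whereas type IV chains form the sheet-like network of the basement membrane that wraps each fibre and capillary, and type VI chains form beaded filaments between these layers. In muscle the fibrillar and beaded chains are made chiefly by fibroblasts, and their synthesis needs dedicated hydroxylases, chaperones and proteases before the fibrils are crosslinked outside the cell.

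The tumour comparison asked which chains differed between T and C in each tissue. In EDL, 18 of the 42 chains were lower in T and 0 were higher, where 22.4% of all genes were called, 11.6% lower and 10.7% higher. In SOL 19 chains were lower, against 13.7% of all genes called and 8.66% lower, and 0 were higher (5.06% of all genes), except for Col23a1, which was called higher with a repeated quantile normalization, with all arrays in 1 fit and without C replicate 6. In heart 3 chains were lower and 0 higher, where 5.74% of all genes were called, 3.04% lower and 2.70% higher. Over the 42 chains the median log2 fold change was −0.25 for EDL, −0.37 for SOL and −0.01 for heart, beside −0.03, −0.01 and 0.00 over all genes. These tests were limma fits of the 4 groups of a tissue, with Benjamini-Hochberg adjustment over all genes and a threshold of 0.01.

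Fibrillar chains made up 10 of the 18 called chains in EDL and 10 of the 19 in SOL, and beaded filament chains 4 in each. The remaining called chains were Col12a1 and Col22a1 of the FACIT class, the multiplexin Col15a1 and the short-chain network collagen Col8a1 in both muscles, and Col14a1 in SOL. All 18 chains called in EDL were also called in SOL. Not 1 of the 6 basement membrane chains was called in T against C of any tissue, nor was any of the 4 transmembrane chains, except for Col23a1 in SOL under the settings just named. Col4a3, Col4a4, Col4a5 and Col4a6 lay below the median level of all genes in both muscles, as did Col13a1, Col17a1 and Col25a1. A small fall could be missed at such levels, although 2 of the called chains in EDL and 3 in SOL were also below the median.

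**Figure D1:**
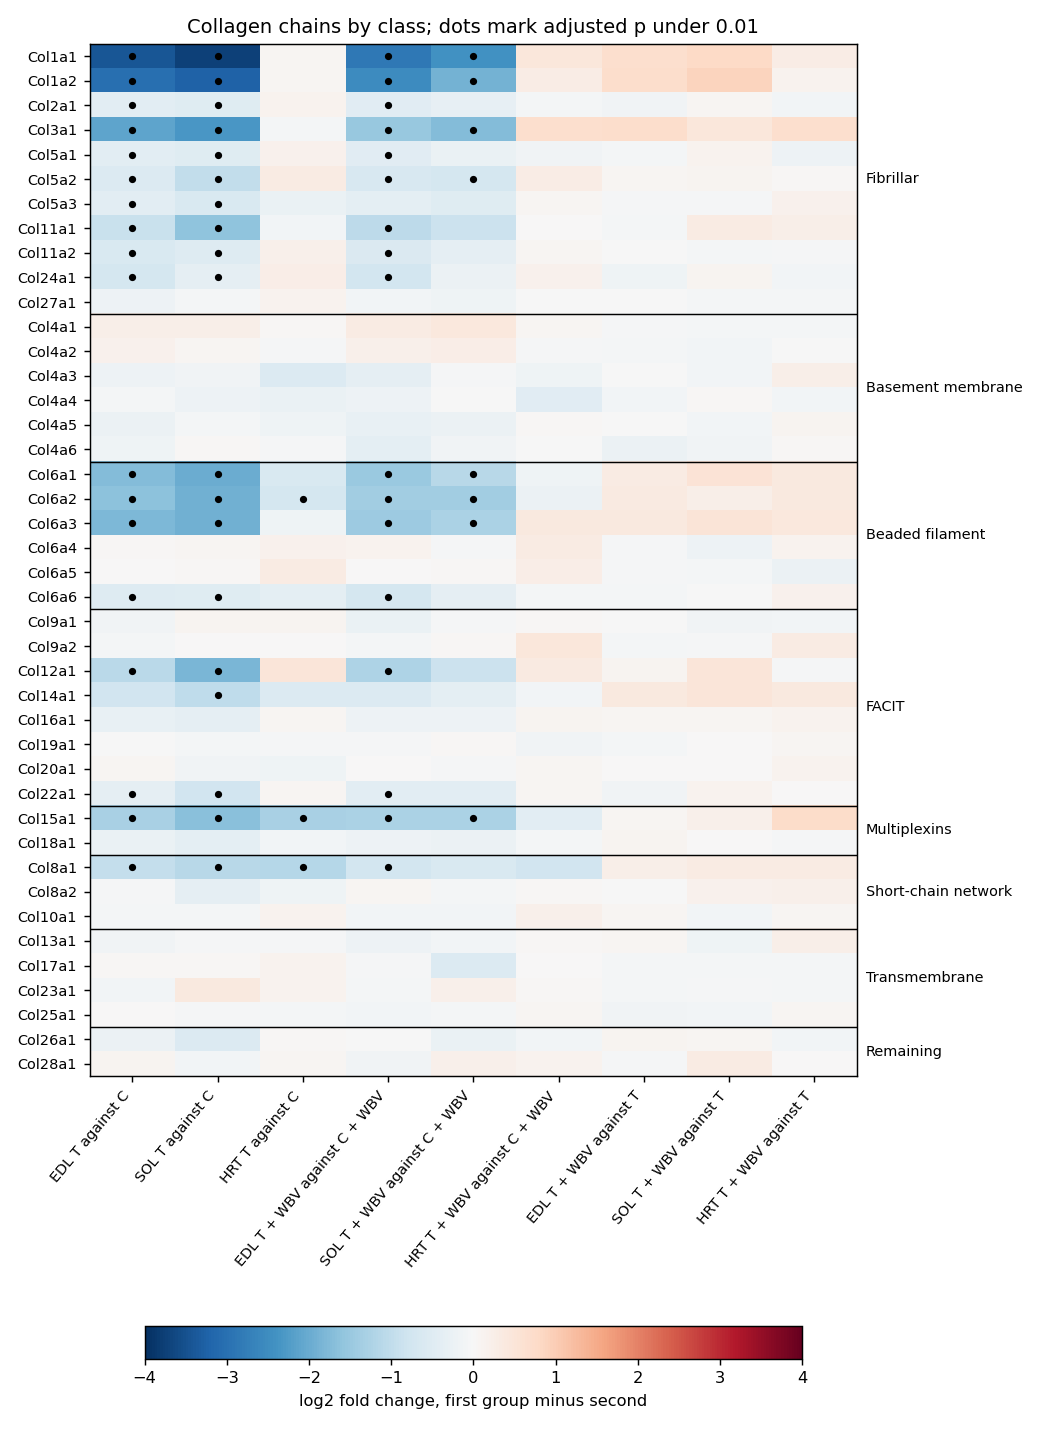
Log2 fold changes of the 42 chains (rows, grouped by class) in T against C, T + WBV against C + WBV and T + WBV against T in EDL, SOL and heart (HRT). Blue stands for lower in the group named first, and dots mark an adjusted p under 0.01. The dots lie in the fibrillar and beaded filament rows of EDL and SOL and in a few FACIT, multiplexin and short-chain rows. In heart they mark Col6a2, Col15a1 and Col8a1 in T against C. None lies in the basement membrane rows or in T + WBV against T.

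Markers of other cell types moved beside the chains, and their counts are to be read against all genes, of which 11.6%, 8.66% and 3.04% were lower and 10.7%, 5.06% and 2.70% higher (EDL, SOL and heart). Of 8 tendon cell markers 4 were lower in EDL, 6 in SOL and Fmod alone in heart, with Tnmd (tenomodulin) at −3.04 (SE 0.54) and −4.12 (SE 0.50) in the muscles. The mean level of the 8 markers lay between 7.30 and 8.38 in C and between 5.501 and 7.61 in T of EDL. In SOL it lay between 8.06 and 9.02 in C and 5.86 and 6.82 in T, without overlap, and in heart between 4.66 and 4.85 and 4.53 and 5.00. Kera, Fmod and Thbs4 are also among the fibril-binding proteins given further on. Of 9 fibroblast markers 3 were lower and 1 higher in EDL, 3 lower in SOL and 4 higher in heart, and their mean level was 6.78 to 7.11 in C and 6.32 to 7.20 in T of EDL. For SOL these were 6.97 to 7.29 and 6.28 to 7.20, and for heart 7.81 to 7.88 and 8.07 to 8.30. Of 8 macrophage markers 3 were higher in EDL, 0 in SOL and 5 in heart, and of 7 neutrophil markers 3, 5 and 4 were higher. Endothelial markers went both ways, with Kdr at −1.06, −1.28 and −0.81 and Esam at 0.72 and 0.65 in EDL and SOL. Over all 8 endothelial markers the mean level overlapped between C and T. It was 7.77 to 7.96 in C and 7.70 to 8.115 in T of EDL, 8.10 to 8.22 and 7.72 to 8.29 in SOL, and 8.65 to 8.77 and 8.67 to 8.71 in heart. Smooth muscle, Schwann cell and adipocyte markers had 0 calls in EDL and SOL. The part of tendon, fibroblasts and infiltrating cells in the collagen differences was not tested.

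Type I collagen, the main fibril of tendon and fibrous sheaths, consists of chains from Col1a1 and Col1a2. The level of Col1a1 in EDL ran from 9.47 through a median of 10.13 to 11.13 in C, and from 6.06 through 6.44 to 8.95 in T. In SOL it ran from 9.94 through 10.92 to 11.28 in C, and from 6.13 through 6.84 to 8.79 in T. Every T mouse lay below every C mouse in both muscles, as was so for 8.39% of all genes in EDL and 6.68% in SOL. In T the level of Col1a1 was 10.6-fold lower in EDL (log2 fold change −3.41, 95% confidence interval −4.38 to −2.45, adjusted p = 8.61e-06) and 13.2-fold lower in SOL (−3.72, −4.71 to −2.74, adjusted p = 8.41e-06). Its partner Col1a2 had a median of 9.95 in C and 6.77 in T of EDL, and of 10.83 and 7.29 in SOL, with no overlap between the groups. Its changes were −3.00 (SE 0.43) and −3.22 (SE 0.40).

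Col3a1 encodes the chain of type III collagen, which forms thinner fibrils together with type I. Its level in EDL ran from 7.96 through 8.14 to 8.89 in C and from 5.34 through 5.88 to 8.24 in T, and in SOL from 8.68 through 8.86 to 9.39 in C and from 5.74 through 6.23 to 8.64 in T. The groups overlapped in EDL through 1 T mouse, replicate 3, and did not overlap in SOL. The change was −2.10 (SE 0.35, adjusted p = 4.84e-05) in EDL and −2.33 (SE 0.37, adjusted p = 7.19e-05) in SOL.

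The chains of types V and XI sit in the core of fibrils and limit their width. Col5a1, Col5a2 and Col5a3 fell by 0.42, 0.56 and 0.44 in EDL and by 0.47, 0.98 and 0.61 in SOL, with SE from 0.09 to 0.15. Levels of Col5a2 in SOL ran from 6.12 to 6.63 in C and from 4.92 to 5.88 in T, without overlap, whereas in EDL they ran from 5.48 to 5.95 and from 4.93 to 5.84. The 2 probe sets of Col5a1 differed in size, at −0.65 and −0.20 in EDL and −0.64 and −0.31 in SOL, and both were lower in T.

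Col11a1 stood apart from these in size. Its changes were −0.88 (SE 0.14) for EDL and −1.62 (SE 0.23) for SOL, where its level ran from 5.86 to 7.08 in C and from 4.67 to 5.15 in T. Col11a2 fell by 0.61 and 0.51, Col24a1 by 0.69 and 0.37, and Col2a1, the main fibrillar chain of cartilage, by 0.42 and 0.47 (EDL and SOL). When 1 array was left out, the SOL call was lost in 17 of 23 fits for Col24a1 and in 16 of 23 for Col2a1, with changes of −0.33 or below in all fits. Lost in the same way were the calls of Col5a2 and Col22a1 in EDL (8 of 23 fits each) and of Col6a6 in SOL (7 of 23). Col27a1 was the fibrillar chain that did not pass, at −0.20 (95% confidence interval −0.40 to 0.00) in EDL and −0.08 (−0.26 to 0.10) in SOL.

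Type VI collagen links the pericellular matrix to the surrounding fibrils, and its common form is assembled from Col6a1, Col6a2 and Col6a3. These 3 chains moved by like amounts. Col6a1 ran from 7.81 through 7.88 to 8.35 in C and from 5.84 through 6.01 to 7.40 in T of EDL, and from 8.11 through 8.48 to 8.85 and from 5.74 through 6.46 to 7.50 in SOL, without overlap in either muscle. The changes were −1.73, −1.65 and −1.81 for Col6a1, Col6a2 and Col6a3 in EDL (SE 0.24, 0.21 and 0.25) and −1.99, −1.92 and −1.92 in SOL (SE 0.25, 0.22 and 0.25). Of the chains that can stand in for Col6a3, Col6a6 changed by −0.52 (SE 0.12) in EDL and by −0.50 (SE 0.13) in SOL. Col6a4 and Col6a5 were at 0.04 and 0.00 in EDL and 0.07 and 0.04 in SOL, with the widest 95% confidence interval from −0.21 to 0.29.

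Among the FACIT chains, which bind to the surface of fibrils, Col12a1 had the largest change. Its level in EDL ran from 6.27 through 6.60 to 7.33 in C and from 5.43 through 5.57 to 5.96 in T, and in SOL from 7.08 through 7.84 to 8.28 and from 5.64 through 6.04 to 6.36. All T mice were below all C mice, and the changes were −1.08 (SE 0.21) in EDL and −1.82 (SE 0.30) in SOL. Col14a1 fell by 1.02 (SE 0.23) in SOL, and in EDL, where it did not pass (adjusted p = 0.0255), it was at −0.76 (SE 0.26) with levels from 5.82 to 6.66 in C and 4.96 to 6.82 in T. Col22a1, found at junctions of muscle and tendon, changed by −0.35 (SE 0.10, adjusted p = 0.00658) in EDL and by −0.76 (SE 0.16) in SOL. The other 5 members, Col9a1, Col9a2, Col16a1, Col19a1 and Col20a1, did not pass and were between −0.36 and 0.10.

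Col15a1 and Col8a1 were called in all 3 tissues, as was Col6a2. Col15a1 encodes a multiplexin that anchors the basement membrane to the underlying fibrils, and Col8a1 a network-forming chain of vessel walls. The level of Col15a1 ran from 6.82 through 7.11 to 7.69 in C and from 5.41 through 5.78 to 6.54 in T of EDL, and from 7.08 through 7.47 to 7.74 and from 5.10 through 5.70 to 6.73 in SOL. In heart it was 7.81, 8.29 and 7.94 in the 3 C mice and 7.08, 6.61 and 6.44 in the 3 T mice. The groups did not overlap in any tissue, and the change in Col15a1 was −1.29 (SE 0.17) for EDL, −1.66 (SE 0.22) for SOL and −1.30 (SE 0.19, adjusted p = 0.000792) for heart. With 3 hearts per group, 16.3% of all genes were wholly lower in T of the heart.

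Levels of Col8a1 did not overlap between C and T either. They ran from 5.75 to 6.26 in C and from 4.80 to 5.38 in T of EDL, and from 6.34 to 7.06 and 5.31 to 6.11 in SOL. In heart they were 7.21, 7.10 and 7.18 in C against 6.04, 6.19 and 5.85 in T. The changes in Col8a1 were −0.96 (SE 0.15), −1.12 (SE 0.19) and −1.14 (SE 0.16, adjusted p = 0.000729). Its relative Col8a2 did not pass, at −0.05, −0.36 and −0.16 (EDL, SOL and heart), and nor did the multiplexin Col18a1, the source of endostatin, at −0.27, −0.40 and −0.11.

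In heart Col6a2 was 7.27, 7.52 and 7.27 in C and 7.03, 6.31 and 6.59 in T, and fell by 0.71 (SE 0.15, adjusted p = 0.00697). This call was close to the threshold. It was lost in 9 of 12 fits that left out 1 heart array, in the fit of C and T alone, with 1 prior variance, with the replicate number as a block and with all arrays in 1 fit.

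**Figure D2:**
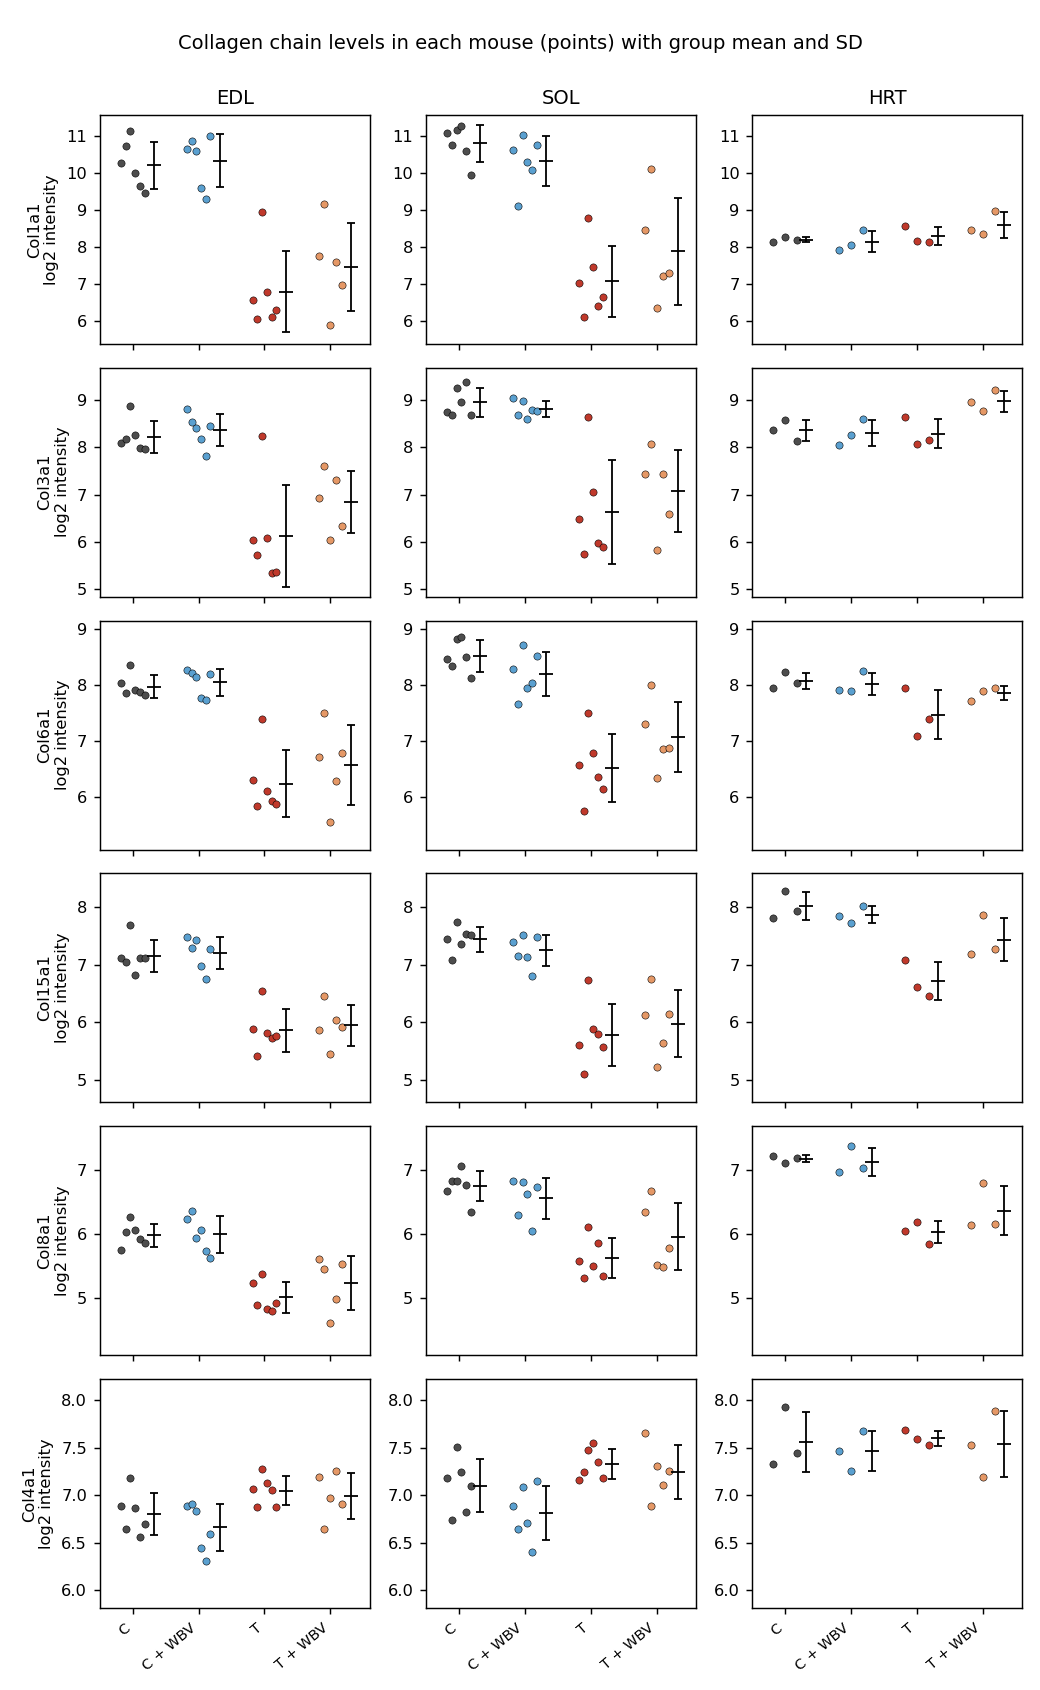
Log2 intensity of Col1a1, Col3a1, Col6a1, Col15a1, Col8a1 and Col4a1 (rows) in each mouse (points) of the 4 groups in EDL, SOL and heart (HRT), with the group mean and SD beside the points. In EDL and SOL the means of T and T + WBV lie below those of C and C + WBV for the first 5 chains, with some overlap between single mice, Col15a1 and Col8a1 are lower in T of the heart as well, and Col4a1 shows no such drop in any tissue.

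The basement membrane chains Col4a1 and Col4a2, which assemble into the common type IV network, were not lower. In EDL, Col4a1 ran from 6.56 through 6.78 to 7.18 in C and from 6.87 through 7.06 to 7.27 in T, and in SOL from 6.74 through 7.14 to 7.51 and from 7.16 through 7.30 to 7.55. The T values lay in the upper part of the C range or just above it. The difference was 0.24 (95% confidence interval −0.01 to 0.49, adjusted p = 0.148) in EDL and 0.23 (−0.06 to 0.52, adjusted p = 0.285) in SOL, and for Col4a2 0.17 (−0.04 to 0.39) and 0.09 (−0.15 to 0.33). These intervals leave out the falls measured for the type I, III and VI chains. Col4a3, Col4a4, Col4a5 and Col4a6 were between −0.22 and 0.05 in the muscles, none called. In heart Col4a3 was at −0.54 (SE 0.13) with an adjusted p of 0.0127, just over the threshold.

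**Figure D3:**
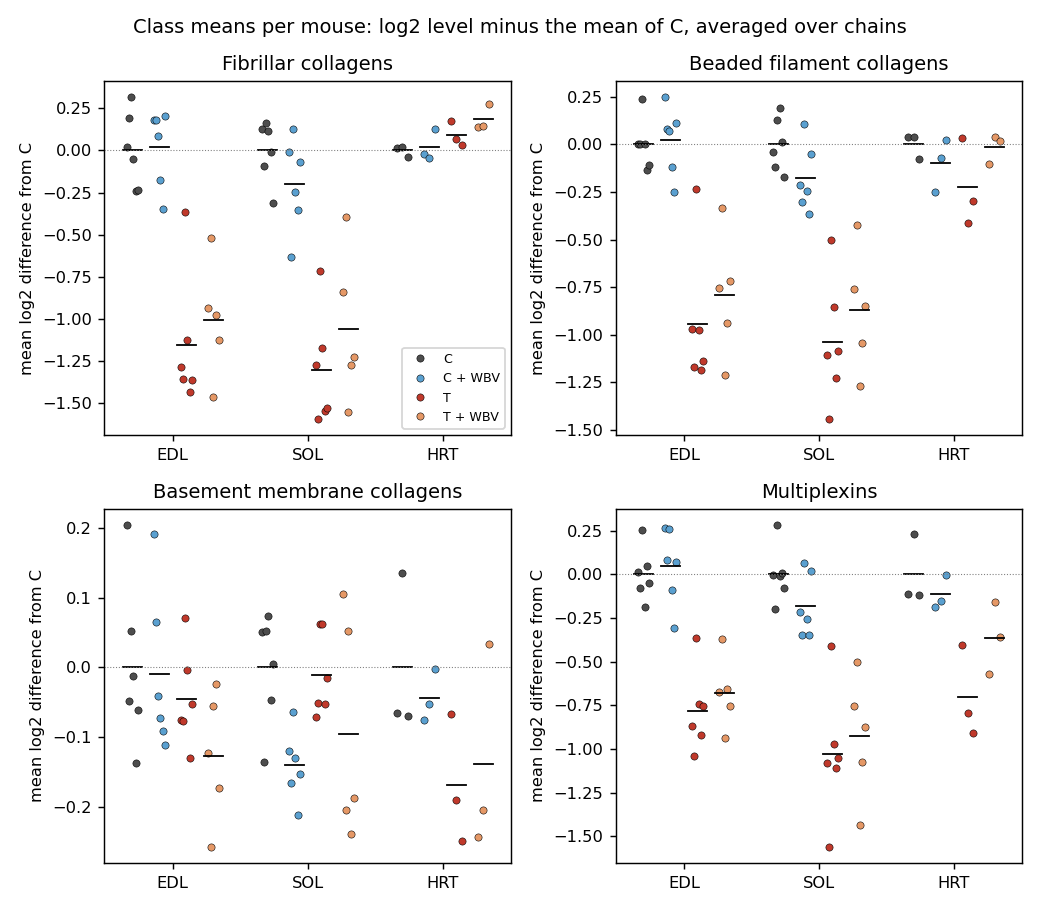
Log2 level relative to the C mean of the same tissue, averaged over the chains of a class, for each mouse (points) of the 4 groups in EDL, SOL and heart (HRT), with group means as bars and 0 as a dotted line. The vertical axes differ between the panels. Fibrillar and beaded filament means are well below 0 in T and T + WBV of EDL and SOL, whereas basement membrane means stay between −0.26 and 0.20.

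Averaged over the 11 fibrillar chains, the T mice stood at −1.16 ± 0.40 (SD, n = 6) relative to the C mean of EDL and at −1.31 ± 0.34 (SD, n = 6) in SOL, and over the 6 beaded filament chains at −0.95 ± 0.36 and −1.04 ± 0.33 (SD, n = 6 each). The basement membrane mean was −0.04 ± 0.07 in EDL and −0.01 ± 0.06 in SOL (SD, n = 6 each). In heart of T the fibrillar mean was 0.09 ± 0.07, the beaded filament mean −0.23 ± 0.23 and the basement membrane mean −0.17 ± 0.09 (SD, n = 3 each). These means describe the classes and carry no test. They count chains of low level, such as Col4a3 to Col4a6 in the muscles, like the others.

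Chains that fell together included neighbours in the genome. Col3a1 and Col5a2 are adjacent on chromosome 1 and Col6a1 and Col6a2 on chromosome 10, and all 4 fell in both muscles. Col4a1 and Col4a2 are adjacent as well, on opposite strands, and neither was called. Their starts in the promoter windows used below are 21 bases apart. The annotated genes overlap on chromosome 8, where Col4a2 begins at 11312805 and Col4a1 reaches to 11312889. In the row of Col6a6, Col6a5 and Col6a4 on chromosome 9, only Col6a6 fell in the muscles.

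To show what lies before the starts of the chains that fell, the 150 bases upstream of the annotated start are given for 1 chain each of types I, III and VI and for Col15a1 and Col8a1, which also fell in heart. For Col15a1 the start used, 47208012, lies inside the annotated gene, which begins at 47207655. The sequences are from RefSeq (GRCm38.p6), each 5′ to 3′ on the strand of its gene, and capitals mark matches, on either strand, to the CCAAT box (CCAAT), the GC box (GGGCGG), the TATA box (TATAAA) and the SMAD-binding motif (CAGAC).
Col1a2, chr6:4505468-4505617, plus strand: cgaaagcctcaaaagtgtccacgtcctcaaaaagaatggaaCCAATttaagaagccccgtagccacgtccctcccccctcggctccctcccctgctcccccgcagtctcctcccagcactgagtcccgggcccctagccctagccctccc
Col3a1, chr1:45311388-45311537, plus strand: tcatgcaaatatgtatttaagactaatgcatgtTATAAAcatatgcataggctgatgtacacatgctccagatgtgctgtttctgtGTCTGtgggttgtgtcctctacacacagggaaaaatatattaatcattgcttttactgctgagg
Col6a1, chr10:76726045-76726194, minus strand: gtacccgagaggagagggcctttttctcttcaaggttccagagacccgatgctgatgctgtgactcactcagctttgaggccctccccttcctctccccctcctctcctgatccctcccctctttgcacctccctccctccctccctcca
Col15a1, chr4:47207862-47208011, plus strand: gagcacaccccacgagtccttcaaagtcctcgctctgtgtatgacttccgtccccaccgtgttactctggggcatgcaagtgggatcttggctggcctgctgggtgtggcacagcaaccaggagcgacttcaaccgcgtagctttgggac
Col8a1, chr16:57754738-57754887, minus strand: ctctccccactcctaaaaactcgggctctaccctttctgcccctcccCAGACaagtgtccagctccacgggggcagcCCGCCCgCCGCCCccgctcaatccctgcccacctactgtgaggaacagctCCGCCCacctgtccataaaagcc

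A window of 300 bases (250 before and 50 after the start) was held for 34 of the 42 chains, 13 of which fell in both muscles and 21 of which were called in neither. Each of the motifs was found in windows of both kinds. CCAAT was in 3 of the 13 and 9 of the 21 windows (37.4% of 32851 windows of all genes), GGGCGG in 8 and 13 (35.7%), TATAAA in 2 and 3 (13.6%) and CAGAC in 9 and 10 (49.6%). A match is a run of letters and not a known binding site, and the windows follow annotated starts that muscle need not use.

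The difference between tissues in the tumour effect was tested in a fit of all 58 arrays with the mouse as a random block. Between heart and EDL, 9 chains differed, where 3.50% of all genes were called. Each was lower in T of EDL, was not called in heart, and had the higher value in heart (1.79% of all genes in this direction). Signs in heart went both ways. Without 1 heart array, Col12a1 ran from 0.42 to 0.56, Col5a2 from 0.29 to 0.41 and Col5a1 from 0.14 to 0.22, whereas Col6a3 ran from −0.31 to −0.07. Col12a1 and Col5a2 lay wholly above C in heart, as did 15.7% of all genes. Col1a1 differed by 3.62 (SE 0.73, adjusted p = 0.000704), Col1a2 by 3.20 (SE 0.63), Col3a1 by 2.17 (SE 0.54), Col6a3 by 1.66 (SE 0.39) and Col12a1 by 1.58 (SE 0.41). Col24a1, Col5a2, Col11a2 and Col5a1 differed by 0.60 to 0.96. In heart the level of Col1a1 was 8.14, 8.28 and 8.19 in C and 8.57, 8.17 and 8.14 in T, overlapping groups with a difference of 0.09 (95% confidence interval −0.26 to 0.45). For Col15a1 the difference between the tissues was 0.03 (−0.59 to 0.65). Between SOL and EDL, 0 chains differed, where 2.02% of all genes were called. At an unadjusted p under 0.05 stood 6 chains (14.3%), below the 19.4% of all genes.

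The hearts came from a subset of the mice that leaves out T replicate 3 of EDL and SOL, the T mouse with the highest body mass. Heart arrays carry replicate numbers of their own. Mice left out of fits of all tissues are named by their muscle number. In the T mice with a heart array, EDL levels of Col1a1 were 6.79, 6.11 and 6.29, whereas their hearts held the 8.57, 8.17 and 8.14 given above. With the 12 heart mice alone in all tissues, Col1a1 differed by 4.20 (SE 0.63) between heart and EDL and 9 chains were called. Without the mouse block 4 of the chains were called, namely Col1a1, Col1a2, Col11a2 and Col24a1, and the number ran from 3 (without T replicate 5) to 11 (without T replicate 3) when 1 mouse was left out. Col1a1, Col1a2 and Col24a1 were called in every setting that kept all genes.

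**Figure D4:**
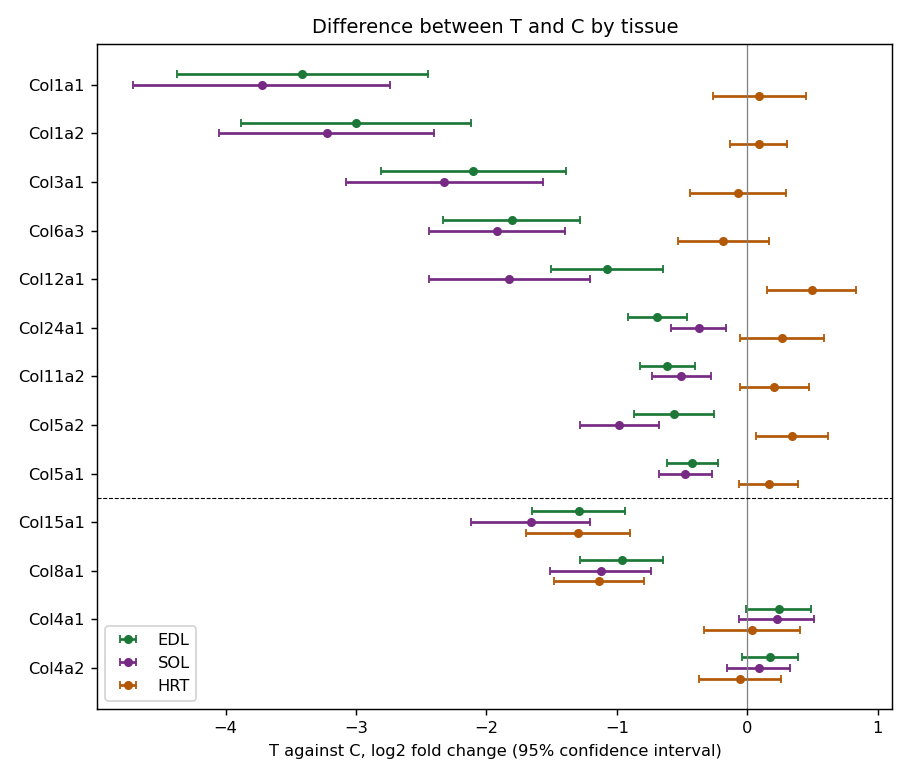
T against C (log2 fold change with 95% confidence interval) in EDL, SOL and heart (HRT) for the 9 chains that differed between heart and EDL, above the dashed line, and for Col15a1, Col8a1, Col4a1 and Col4a2, below it. The heart intervals of the upper chains lie near or above 0 and apart from those of the muscles, whereas for Col15a1 and Col8a1 the intervals of the 3 tissues overlap.

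The comparison of T + WBV with C + WBV used other mice of the same experiment and asked whether the tumour difference was also present among trained mice. In EDL 17 chains were lower and 0 higher, where 11.9% of all genes were called, 6.60% lower and 5.27% higher, and in SOL 8 were lower and 0 higher, against 3.61% called, 1.66% lower and 1.94% higher. In heart limma called 0 chains (1.49% of all genes called, 0.478% lower and 1.01% higher), and 10 (23.8%) had an unadjusted p under 0.05, near the 20.4% of all genes. All 17 chains in EDL and all 8 in SOL were among those lower in T against C of the same muscle. Col1a1, Col1a2, Col3a1, Col5a2, Col6a1, Col6a2, Col6a3 and Col15a1 were lower in all 4 skeletal muscle comparisons of tumour-bearing with tumour-free mice.

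Col1a1 in the 5 T + WBV mice was 7.76, 9.16, 5.89, 7.59 and 6.99 in EDL and 8.45, 10.11, 6.35, 7.22 and 7.32 in SOL, against 9.29 to 11.01 and 9.12 to 11.03 in C + WBV. Replicate 2, at 9.16 and 10.11, was the highest of its group, and in SOL it lay inside the C + WBV range. The change of Col1a1 was −2.87 (SE 0.49, adjusted p = 0.00031) in EDL and −2.44 (SE 0.50, adjusted p = 0.0033) in SOL, and that of Col3a1 −1.53 (SE 0.36) and −1.75 (SE 0.38). Col6a2 changed by −1.40 (SE 0.22) and −1.39 (SE 0.23), and Col15a1 by −1.25 (SE 0.18) and −1.27 (SE 0.23). Col4a1 was 0.33 higher in EDL (95% confidence interval 0.07 to 0.59, adjusted p = 0.0662) and 0.43 higher in SOL (0.13 to 0.73, adjusted p = 0.0653), both short of the threshold. Of the 6 basement membrane chains, 4 had negative values in EDL (median of the class −0.24, lowest −0.39). Col4a5 and Col4a6 lay wholly below C + WBV there. None was called, but Col4a3 and Col4a6 were called lower in EDL under some alternatives, and so was Col4a6 against C.

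The type VI and XV chains had no or little overlap between trained groups. Col6a1 was 6.71, 7.49, 5.56, 6.28 and 6.79 in EDL of T + WBV, all below the 7.73 to 8.27 of C + WBV, and in SOL it was 7.30, 8.00, 6.33, 6.85 and 6.88 against 7.66 to 8.71. Replicate 2 was again the highest, and in SOL it was the T + WBV mouse inside the C + WBV range. Col15a1 was 5.86, 6.45, 5.45, 6.03 and 5.92 in EDL against 6.75 to 7.48, and 6.13, 6.74, 5.22, 5.64 and 6.13 in SOL against 6.79 to 7.52, without overlap in either muscle. Of all genes, 4.43% in EDL and 2.09% in SOL were wholly lower in T + WBV than in C + WBV. For Col4a1 the T + WBV mice were at 7.19, 6.64, 6.97, 7.25 and 6.91 in EDL against 6.31 to 6.91 in C + WBV, and here replicate 2 was the lowest.

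The count in SOL was sensitive to the setting. It was 3 when only the compared groups were fitted, 2 with a covariate for arrays whose description ended in a suffix, 5 with the replicate block, and from 2 (without T + WBV replicate 4) to 10 (without T + WBV replicate 2) when 1 array was left out. Col6a2 and Col15a1 were called in SOL in every setting that kept all genes. With 1 array left out, the call of Col6a1 was lost in 18 of 23 fits. Those of Col1a2, Col3a1 and Col5a2 were lost in 6 of 23 each, and those of Col1a1 and Col6a3 in 3 of 23 each. In heart, leaving out T + WBV replicate 2 led to calls for Col8a1, at −0.97, and for Col3a1, at 0.78.

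Against C, which also served as the control of T, T + WBV was lower for 17 chains in EDL (11.1% of all genes called, 5.69% lower and 5.37% higher), for 12 in SOL (4.67% called, 2.66% lower and 2.01% higher) and for 0 in heart (1.47% called, with limma), and higher for 0 in each. Side by side, Col1a1 was at −3.41 in T and −2.73 in T + WBV of EDL, and at −3.72 and −2.92 in SOL. For Col15a1 the values were −1.29 and −1.21 (EDL), −1.66 and −1.47 (SOL), and −1.30 and −0.58 (heart).

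Training itself was tested by T + WBV against T, by C + WBV against C and by the interaction of tumour and training. No chain passed in any of the 3 tissues by limma, and neither did any other gene (0% of all genes called in each). In T + WBV against T, an unadjusted p under 0.05 was found for 0 chains of EDL, 3 of SOL and 6 of heart (0%, 7.14% and 14.3%, against 4.79%, 4.99% and 7.48% of all genes). For C + WBV against C they numbered 0, 2 and 0 (all genes 3.33%, 3.18% and 3.32%), and for the interaction 0, 4 and 4 (0%, 9.52% and 9.52%, against 3.17%, 4.45% and 5.87% of all genes).

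The intervals of the training differences were wide for the chains that fell most. For T + WBV against T, Col1a1 was at 0.68 (95% confidence interval −0.33 to 1.69) for EDL, 0.81 (−0.22 to 1.84) for SOL and 0.31 (−0.05 to 0.66) for heart. The smallest p in EDL belonged to Col3a1 (0.71, −0.04 to 1.46, adjusted p = 0.867) and in SOL to Col28a1 (0.31, 0.04 to 0.58, adjusted p = 0.928). In heart Col3a1 was 8.65, 8.07 and 8.16 in T and 8.96, 8.76 and 9.21 in T + WBV, groups without overlap and with a difference of 0.68 (0.32 to 1.05, adjusted p = 0.357). Of all genes, 6.08% were likewise wholly higher in T + WBV than in T of the heart. Col15a1 in heart was 7.18, 7.85 and 7.27 in T + WBV, all above the 3 T mice, with a difference of 0.72 (0.32 to 1.12, adjusted p = 0.377) and an interaction of 0.87 (0.31 to 1.44, adjusted p = 0.766). In the same order, these T + WBV mice stood at 87.8, 100.9 and 82.2% of their starting body mass. The T mice with a heart array stood at 79.8, 82.6 and 77.5%. The part of body mass in the heart differences was not tested. In C + WBV against C, the chain with the smallest p was Col28a1 in EDL (0.21, −0.02 to 0.45), Col4a2 in SOL (−0.29, −0.53 to −0.06) and Col19a1 in heart (0.15, −0.13 to 0.43).

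Body mass at day 19, given in the labels as a percentage of the starting mass, ran from 77.5 to 91.0% in T, from 75.9 to 100.9% in T + WBV, from 107.9 to 114.5% in C and from 107.0 to 111.4% in C + WBV. Among the 11 tumour-bearing mice the level of each gene was fitted on body mass with training as a term. In EDL 4 chains had a slope past the threshold, where 1.17% of all genes had one, and in SOL 6, against 0.335%. Col1a1 was higher by 0.14 (SE 0.02, adjusted p = 0.00223) in EDL and 0.15 (SE 0.02, adjusted p = 0.00113) in SOL for each percentage point of body mass, and Col1a2 by 0.13 in both. Col6a1 rose by 0.08 in both muscles and Col6a3 by 0.08 in EDL, and Col6a2, Col15a1 and Col8a1 rose by 0.06, 0.07 and 0.05 in SOL. Col4a1 had slopes of −0.0046 (95% confidence interval −0.024 to 0.015) in EDL and −0.0053 (−0.026 to 0.016) in SOL.

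The calls, more than the size of the slopes, depended on single mice. T replicate 3 (91.0%) and T + WBV replicate 2 (100.9%) had the highest body mass and the highest Col1a1 of their groups, 8.95 and 9.16 in EDL and 8.79 and 10.11 in SOL. Without T replicate 3, 0 slopes passed in EDL and 1 in SOL, without T + WBV replicate 2, 0 passed in either muscle, and without T + WBV replicate 3, the T + WBV mouse with the lowest Col1a1, 1 passed in each. Likewise 0 passed in either muscle without the 2 mice farthest from the median or with carcass mass in place of body mass. Without the training term 7 chains passed in EDL. The slope of Col1a1 itself ran from 0.12 (without T replicate 3) to 0.18 (without T + WBV replicate 2) in EDL, where it passed in 9 of 11 fits, and from 0.15 to 0.16 in SOL, where it passed in 10 of 11 fits.

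**Figure D5:**
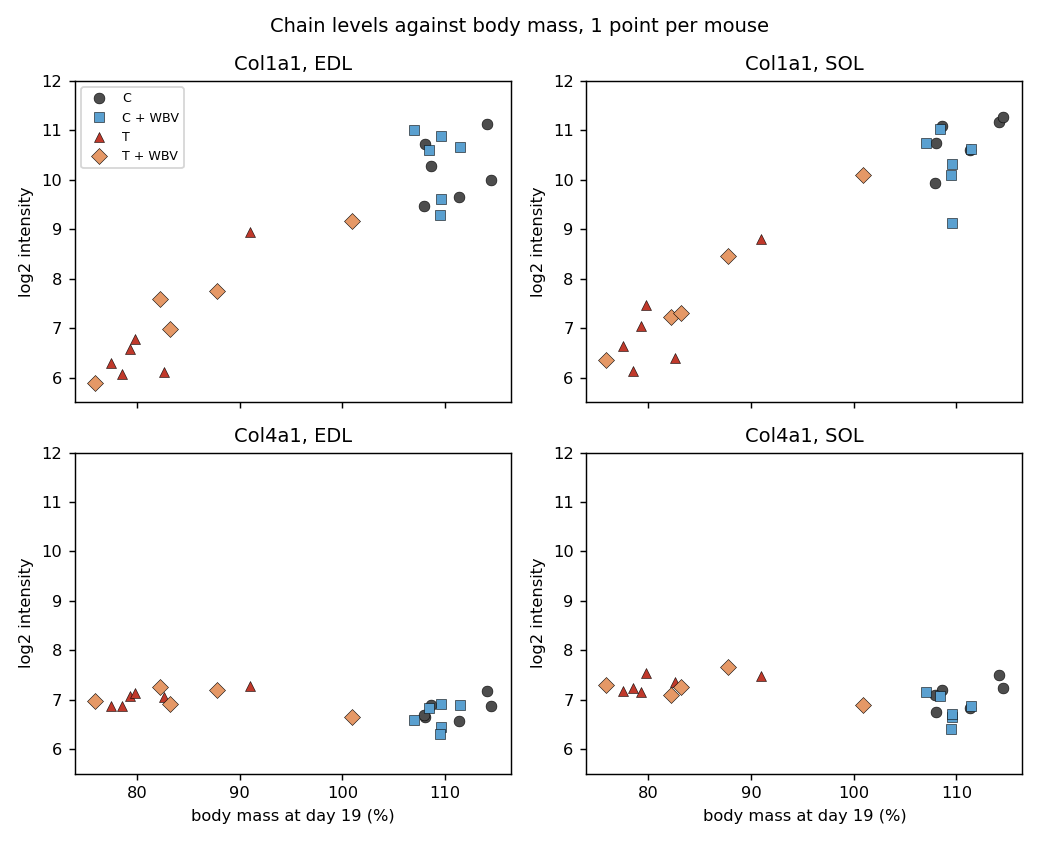
Log2 intensity of Col1a1 (upper panels) and Col4a1 (lower panels) against body mass at day 19 (percent of the starting mass) in EDL and SOL, with 1 point per mouse and a symbol for each group. Among the T and T + WBV mice, Col1a1 in EDL lies between 5.89 and 7.76 in 9 mice and at 8.95 and 9.16 in both mice of highest body mass, whereas Col4a1 shows no such difference.

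The tissues of tumour-free C mice differed in their collagens. In SOL against EDL 8 chains were higher and 1 lower, where 13.9% of all genes were called, 7.49% higher and 6.44% lower. Col12a1 was higher by 1.11 (SE 0.23), Col11a1 by 1.04 (SE 0.17) and Col8a1 by 0.76 (SE 0.16), and Col24a1 was lower (−0.42, SE 0.09). Col1a1 did not pass, at 0.59 (95% confidence interval −0.23 to 1.42). With C arrays alone and the mouse as a fixed block 14 chains were higher in SOL, with the 12 heart mice alone 2 were, and without C replicate 4 the number was 4. The shares of all genes called in these fits are not given, so the counts show only how the calls moved.

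Heart had lower levels of both type I chains and of Col12a1 than EDL, and higher levels of 3 type IV chains. In heart against EDL 7 chains (16.7%) were higher and 14 (33.3%) lower, where 31.9% of all genes were called, 19.0% higher and 12.9% lower. The share of chains higher was below that of all genes. Col4a5 was higher by 1.83 (SE 0.10), at 5.88, 5.68 and 5.56 in heart against 3.64 to 4.13 in EDL. Col8a1 was higher by 1.17 (SE 0.19), Col15a1 by 0.84 (SE 0.22), Col4a1 by 0.77 (SE 0.15) and Col4a2 by 0.76 (SE 0.12). Col12a1 was lower (−2.21, SE 0.29), as were Col1a1 (−2.05, SE 0.51) and Col1a2 (−1.63, SE 0.45). Against SOL, 5 chains (11.9%) were higher in heart, led by Col4a5, Col6a6 and Col6a5 (1.74, 0.78 and 0.52). Lower were 15 chains (35.7%), led by Col12a1, Col1a1 and Col11a1 (−3.32, −2.64 and −2.39). Of all genes 25.0% were called, 15.4% higher and 9.59% lower, so the share of chains higher was again below that of all genes. Without the mouse that is C replicate 2 in the muscles, the difference of Col6a5 in heart was 0.1937 against SOL and 0.1734 against EDL, and neither passed. Col3a1 did not pass between any of the tissues, at 0.73 in SOL against EDL, 0.10 in heart against EDL and −0.63 in heart against SOL.

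Genes that act on collagens were counted over whole lists, and their counts stand beside 11.6%, 8.66% and 3.04% of all genes lower and 10.7%, 5.06% and 2.70% higher in T of EDL, SOL and heart. Of 16 enzymes and chaperones of collagen hydroxylation and folding, 5 were lower and 1 higher in T of both EDL and SOL. Crtap, a partner of the prolyl 3-hydroxylase, fell by 0.79 and 1.02, Serpinh1, the collagen chaperone HSP47, by 0.61 and 0.86, and Plod2, a lysyl hydroxylase, rose by 0.33 and 0.67. P4ha1, a catalytic subunit of prolyl 4-hydroxylase, fell in EDL by 0.78. Of 11 genes of secretion and propeptide cleavage 3 were lower in EDL and 2 in SOL, with Pcolce, which enhances removal of the C-propeptide, down by 1.18 and 1.52. Of 5 crosslinking enzymes 2 were higher and 1 lower in both muscles. Lox, lysyl oxidase, rose by 1.55 (SE 0.25) in EDL, by 1.26 (SE 0.29) in SOL and by 2.32 (SE 0.40) in heart, and Tgm2, a transglutaminase, by 1.41, 0.84 and 0.93, whereas Loxl2 fell by 0.46 and 0.79 in the muscles.

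Of 12 proteoglycans and glycoproteins that bind fibrils, 4 were lower in EDL and 8 in SOL. In heart 4 were lower and Dcn (decorin) was higher. Kera (keratocan) fell by 3.26 and 4.43 and Lum (lumican) by 1.83 and 1.69 in EDL and SOL, and Sparc, a collagen-binding matrix protein, fell by 1.13, 1.60 and 0.63 in EDL, SOL and heart. Of 9 collagen receptors 1 was lower in EDL and 3 in SOL, among them Mrc2, an uptake receptor for collagen, at −0.88 and −0.96, and in heart 2 were higher and 1 lower. The share of receptors lower in EDL was near that of all genes. Of 11 proteases and inhibitors of collagen breakdown 5 were higher in heart, among them Mmp3 (2.73, SE 0.25), Timp1 (1.72, SE 0.28) and Mmp2 (1.36, SE 0.21), against 1 higher in EDL and 2 higher and 2 lower in SOL. Of 9 other basement membrane components, 2 were lower in EDL and 3 in SOL, with Hspg2 (perlecan) at −0.99 and −0.84 and Nid1 (nidogen) at −0.50 and −0.60, and in heart 2 were lower and 1 higher. With lists of 5 to 16 genes, 1 or 2 calls move a share by much, and none of these counts was tested against the other genes.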

How the data were processed

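RNA from EDL, SOL and heart had been hybridised to Affymetrix Mouse Gene 1.1 ST arrays, 1 per sample. The deposited values are log2 intensities that the authors had normalized by RMA (version not given in the sources used here), with array medians from 4.52 to 4.60. All 58 columns of the table belonged to a sample, and the number of arrays sets the precision. Of 35556 probe sets, 21218 had exactly 1 symbol and were averaged to 18820 genes.

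Each tissue was fitted with its 4 groups in limma 3.58.1 (R 4.3.3, statmod 1.5.0) with a variance prior that followed the mean level. Over all genes, p-values were adjusted after Benjamini and Hochberg, and calls were made under 0.01. Tissues were compared in 1 fit of all 58 arrays with the mouse as a random block (correlation 0.137). Body mass was fitted among 11 tumour-bearing mice with training as a term. Groups and replicates came from the labels, which describe separate mice. Scripts were tested on simulated data.

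The chains, lists and tests were chosen with earlier results of these data known. By rule, the type I, III, IV, V, VI, XV and XVIII chains, the largest falls and tissue differences, the called or smallest p in other comparisons, and up to 3 members of each pathway list were named. Some further chains and the endothelial genes Kdr and Esam were named after their values were seen. As alternatives, the fit was repeated with a constant variance prior, with an intensity-based moderated statistic as in the study's methods, with fewer groups or 1 fit for all, a repeated normalization, a filter on low levels, other probe set rules, a replicate block, a covariate for a description suffix and leaving out each array or mouse. Promoter windows were taken from RefSeq (GRCm38.p6).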

Additional observations from a re-analysis of the deposited data

Results flagged for a closer look

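In 12 of 120 groups of 5 or 6 mice, 1 mouse was far from the others by Dixon's criterion, which chance alone meets in about 1 of 20 groups. Of these, 7 were the same mouse, T replicate 3 in EDL, with the highest body mass of its group (91.0%). Its levels were 8.95 for Col1a1, 9.18 for Col1a2, 8.24 for Col3a1, 7.40 for Col6a1, 6.64 for Col6a3, 5.84 for Col5a2 and 5.02 for Col11a1, each the highest of the T group. Without this mouse the T against C change of Col1a1 in EDL was −3.84 and that of Col3a1 −2.52. C replicate 3 was far above its group in EDL for Col3a1 (8.89) and Col15a1 (7.69). In EDL, C + WBV replicate 5 was far below its group for Col11a1 (5.07), T + WBV replicate 2 for Col4a2 (6.44) and T + WBV replicate 3 for Col5a2 (4.66). The part of body mass and of tendon in these values was not tested.

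The tumour effect differed between heart and EDL, by the test of the difference itself, for 9 chains that fell in EDL and were not called in heart. The effect in heart minus that in EDL was positive for Col1a1 (3.62), Col1a2 (3.20), Col3a1 (2.17), Col6a3 (1.66), Col12a1 (1.58), Col24a1 (0.96), Col5a2 (0.94), Col11a2 (0.83) and Col5a1 (0.60). When 1 mouse was left out, the call was lost in 9 of 12 fits for Col3a1 and Col12a1 and in 6 of 12 for Col5a2 and Col6a3. It was lost in 5 of 12 for Col5a1 and 1 of 12 for Col11a2.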

How the results depend on the processing

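The falls of T against C in EDL and SOL kept their direction under every alternative tried, with 16 to 19 chains lower in EDL and 16 to 20 in SOL when 1 array was left out (0 to 1 higher in SOL, and 2 to 4 lower in heart). SOL had 1 chain higher with a repeated quantile normalization and 1 with all arrays in 1 fit. For T + WBV against C + WBV, 14 to 18 chains were lower in EDL without 1 array, 2 to 10 in SOL and 0 to 1 in heart (0 to 1 higher in heart), and SOL had 3 with only the compared groups and 2 with the suffix covariate. Against C, T + WBV was lower in 14 to 18 chains of EDL, 9 to 16 of SOL and 0 to 2 of heart (0 to 1 higher). Without both mice of high body mass, an alternative chosen after seeing the data like that of the heart mice alone, heart had 1 higher and 1 lower chain in T + WBV against C + WBV, and 1 higher and 2 lower against C. All training comparisons stayed at 0 chains. Counts under alternatives, here and above, are of chains alone, without the share of all genes called in that setting.

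Replicate numbers did not pair the mice. Correlations of same-numbered deviations ran from −0.419 to 0.227 for EDL, −0.414 to 0.4 for SOL and −0.302 to 0.0115 for heart. The replicate block gave 5 lower chains in SOL of T + WBV against C + WBV and 1 in heart, and 1 in heart of T + WBV against C. With only C arrays and the mouse as a fixed replicate block, SOL exceeded EDL in 14 chains.

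Without the mouse block, HRT against SOL had 3 higher chains and the heart against EDL tumour difference 4 (3 to 11 without 1 mouse). Above the median level, 0 chains were lower in SOL against EDL, 4 higher and 8 lower in heart against EDL, and 2 higher in heart against SOL. With the heart mice alone, 2 were higher and 0 lower in SOL against EDL, and 2 higher in heart against SOL. Leaving out 1 mouse gave 4 to 9 higher in SOL against EDL, 6 to 7 higher and 6 to 15 lower in heart against EDL, and 3 to 5 higher and 10 to 16 lower in heart against SOL. The body mass slopes numbered 0 to 5 in EDL and 0 to 6 in SOL without 1 mouse, 7 in EDL without the training term, and 0 in both with carcass mass and without the 2 farthest mice.

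Signs were followed for called chains, and for 15 chosen chains in both tumour comparisons named below. Col6a5, not followed, differed in sign between its 2 probe sets for T against C in SOL, at 0.11 and −0.02, and in EDL, at −0.016 and 0.020. In heart they were at 0.55 and 0.11. Among the values followed, changes of sign were confined to small heart values that had not passed. In T + WBV against C + WBV, Col11a1 was −0.004191 with repeated normalization and −0.002417 with all arrays in 1 fit, Col5a1 was 0.090 with the highest probe set and Col4a2 0.050 without both mice. In T against C, Col3a1 was 0.066 with all arrays in 1 fit. Without 1 heart array, T against C ran from −0.047 to 0.17 for Col1a1, −0.022 to 0.17 for Col1a2, −0.25 to 0.041 for Col3a1, −0.082 to 0.22 for Col4a1, −0.21 to 0.10 for Col4a2 and −0.24 to 0.0081 for Col11a1, and T + WBV against C + WBV from −0.11 to 0.24 for Col4a1, −0.14 to 0.050 for Col4a2, −0.16 to 0.012 for Col18a1 and −0.057 to 0.086 for Col11a1. The causes were not tested. With 3 hearts per group, small differences in heart could not be resolved.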
